A study of Homo sapiens with 24 samples.

Results

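The regulators of pre-mRNA splicing were followed through 250 probe sets of 78 genes on a whole-genome expression array, chosen by gene symbol alone and with every probe set kept. They comprised the SR proteins (SRSF, 43 probe sets of 10 genes), the heterogeneous nuclear ribonucleoproteins (HNRNP, 74 of 21), the CDC-like kinases CLK1 to CLK4 (8 of 4), the cyclins L (CCNL1 and CCNL2, 7 of 2), TRA2A and TRA2B (9 of 2) and the numbered RNA-binding motif genes (RBM, 109 of 39). These were drawn from the 41091 probe sets with 1 gene symbol among the 54675 on the array. A further 20 probe sets that carry several symbols, among them probe sets of SRSF2, SRSF9 and HNRNPH2, were left out, and 6 of the 250 belonged to 5 genes that do not code for protein, such as the antisense RNA RBM26-AS1.

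Introns are removed by the spliceosome, and the choice of splice sites is set by proteins that bind the pre-mRNA: SR proteins and TRA2 proteins mostly promote the use of an exon, whereas HNRNP proteins often repress it. CLK kinases phosphorylate the SR proteins and thereby release them from nuclear speckles, where the cyclins L and their partner kinases also reside. Many of these genes control their own levels through alternative exons that introduce early stop codons, so that different stretches of one gene can be present in different amounts, and separate probe sets of a gene can read different transcripts.

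The question put to the cells was how the nucleus responds to loss of mitochondrial DNA (mtDNA). All HEK293 cells, a human embryonic kidney line, carried a dominant-negative mitochondrial DNA polymerase gamma (DN-POLG) that doxycycline switches on. The AOX/NDI1 cells, a derivative that also expresses the alternative oxidase AOX and the NADH dehydrogenase NDI1, were taken at day 9 and day 0 of doxycycline. DN-POLG cells without these enzymes were taken at days 0, 3, 6 and 9. No HEK293 group received doxycycline without the transgene or was kept to day 9 without doxycycline. Over the days, loss of mtDNA, doxycycline itself, expression of DN-POLG and time in culture therefore cannot be told apart. The osteosarcoma line 143B was taken as rho0 cells, which lack mtDNA chronically, and as rho+ cells. Each of the 8 groups held 3 arrays, and all media contained uridine and pyruvate. The 143B rho0 cells are 1 line, so loss of mtDNA and any other difference between it and the rho+ line cannot be told apart. The labels name HEK293 cells, which the methods of the study call HEK293T. The p-values of limma rest on the spread between cultures within groups, pooled over all groups fitted together, and reach no further than these cultures. In HEK293 cells that pool held the AOX/NDI1 and DN-POLG groups of all days.

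The labelled lines could be told apart by their markers. PAX8, NEFL and LIN28B, 3 of 7 measured HEK293 markers, were higher in every HEK293 array than in every 143B array, while SPARC, RUNX2, CD44 and TWIST1, 4 of 10 osteosarcoma or mesenchymal markers, were higher in every 143B array. WT1 and VIM went the other way, and COL1A2 and THY1 were low in both lines. A library that stood apart was DN-POLG day 6 replicate 1, with a 3′ to 5′ signal ratio for ACTB of 8.92 against 1.05 to 1.81 in the other HEK293 arrays, and the ratio was 5.53 to 8.12 in 143B rho0 and 10.4 to 17.1 in 143B rho+ arrays.

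Levels are MAS5 signals, which are linear hybridisation intensities scaled to the same trimmed mean on each array, so that only values of the same probe set are compared. The files hold no detection calls, so the filter on low signals (57.2 in HEK293 and 83.3 in 143B cells) stands for background here. Where every array of a group lay under it, the change is given as a bound, from the mean log2 signal of the brighter group to that of the dimmer group with signals under the filter set to the filter. Changes are differences of mean log2 signal (log2 fold changes, log2FC) with their standard errors, and a probe set was called when its adjusted p from limma was below 0.05. Of the 250 probe sets, 213 of 75 genes were bright enough to be tested in HEK293 cells and 216 of 72 genes in 143B cells, with 198 tested in both lines and 19 in neither. The tested splicing probe sets were brighter than the array as a whole (median signal 1295, against 456.1 over all tested probe sets) and denser per gene (2.84 against 1.91).

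At day 9 calls were made in the SRSF, HNRNP, cyclin L and RBM families of both models and for a CLK kinase in DN-POLG cells, while most probe sets were not called. In AOX/NDI1 cells 10 of the 213 probe sets rose (4.69%, against 2.46% of all 23132 tested) and 18 fell (8.45%, against 9.33%). In DN-POLG cells 11 rose (5.16%, against 2.31% of all tested) and 9 fell (4.23%, against 6.07%). The risen probe sets belonged to 9 genes in AOX/NDI1 and 11 genes in DN-POLG cells, and the fallen ones to 14 and 8 genes. The number of calls depended on the fit: the 28 calls in AOX/NDI1 cells became 56 with the test named in the study's methods, 69 with only the compared arrays, 18 without the filter on low signals and 89 with array weights. For the 20 calls in DN-POLG cells the same settings gave 0, 7, 12 and 56. Shares over all tested probe sets are not given for these settings, so the counts show only how the calls depended on the fit. The median log2FC was 0.00 in AOX/NDI1 cells (-0.04 over all tested) and 0.09 in DN-POLG cells (0.01 over all tested). All called probe sets had day 9 arrays that did not overlap with their day 0 arrays, which is no evidence apart from the calls, since the same arrays gave both. The share of calls that were higher moved with the scaling, being 35.7% in AOX/NDI1 and 55.0% in DN-POLG cells on the deposited scale, 41.7% and 63.2% after quantile normalization, and 58.3% and 68.4% with the arrays set to one median.

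Among the cyclins L, which pair with CDK11 kinases in nuclear speckles, CCNL1 rose in both models, on 1 of its 3 tested probe sets. CCNL1 1555827_at had signals of 315, 734 and 296 in AOX/NDI1 day 9 cultures, against 111, 83.4 and 50.8 in AOX/NDI1 day 0 cultures. In DN-POLG cells it had 427, 531 and 661 at day 9, against 81.9, 64.0 and 43.2 at day 0. Every day 9 culture was far above every day 0 culture in both models, with log2FC of 2.40 ± 0.35 (SE; adjusted p = 0.000548) in AOX/NDI1 and 3.12 ± 0.35 (adjusted p = 0.000162) in DN-POLG cells, and neither call was lost when any 1 array was left out. The day 0 signals were near the filter, with 1 of 3 under it in each model. The brightest CCNL1 probe set, 220046_s_at, had 2244, 3068 and 2131 at day 9, against 1644, 1622 and 1469 at day 0, in AOX/NDI1 cells (0.64, adjusted p = 0.343). DN-POLG cells had 3464, 2967 and 2917 at day 9, against 1612, 2232 and 1127 at day 0 (0.96, adjusted p = 0.171). It lay higher in all day 9 cultures without passing the test, as did 1555411_a_at (0.76 with adjusted p = 0.152 in AOX/NDI1, and 0.96 with adjusted p = 0.0865 in DN-POLG cells). CCNL2 by its brightest probe set, 222999_s_at, had log2FC of -0.39 (adjusted p = 0.395) in AOX/NDI1 and -0.16 (adjusted p = 0.81) in DN-POLG cells.

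Of the CLK kinases, CLK4 was called in DN-POLG cells. CLK4 228751_at had 895, 1010 and 981 in AOX/NDI1 day 9 cultures, against 650, 608 and 671 in AOX/NDI1 day 0 cultures (0.58, adjusted p = 0.13). The DN-POLG cultures had 732, 1082 and 1042 at day 9, against 609, 458 and 309 at day 0. The day 9 cultures lay above the day 0 cultures in both models, and the change passed in DN-POLG cells (1.09 ± 0.24, adjusted p = 0.00979). The brighter CLK4 probe set, 210346_s_at, was at 2164, 2354 and 2316 in AOX/NDI1 day 9 cultures, against 1654, 1461 and 1243 at day 0 (0.66, adjusted p = 0.195). It was at 2434, 2471 and 2415 in DN-POLG day 9 cultures, against 1529, 1862 and 676 at day 0 (0.97, adjusted p = 0.0696). CLK1 had log2FC of 0.57 (adjusted p = 0.192) in AOX/NDI1 and 0.80 (adjusted p = 0.0875) in DN-POLG cells, CLK2 -0.55 (adjusted p = 0.0814) and -0.38 (adjusted p = 0.289), and CLK3 0.46 (adjusted p = 0.469) and 0.18 (adjusted p = 0.852). None of these 3 kinases was called in either model.

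**Figure D1:**
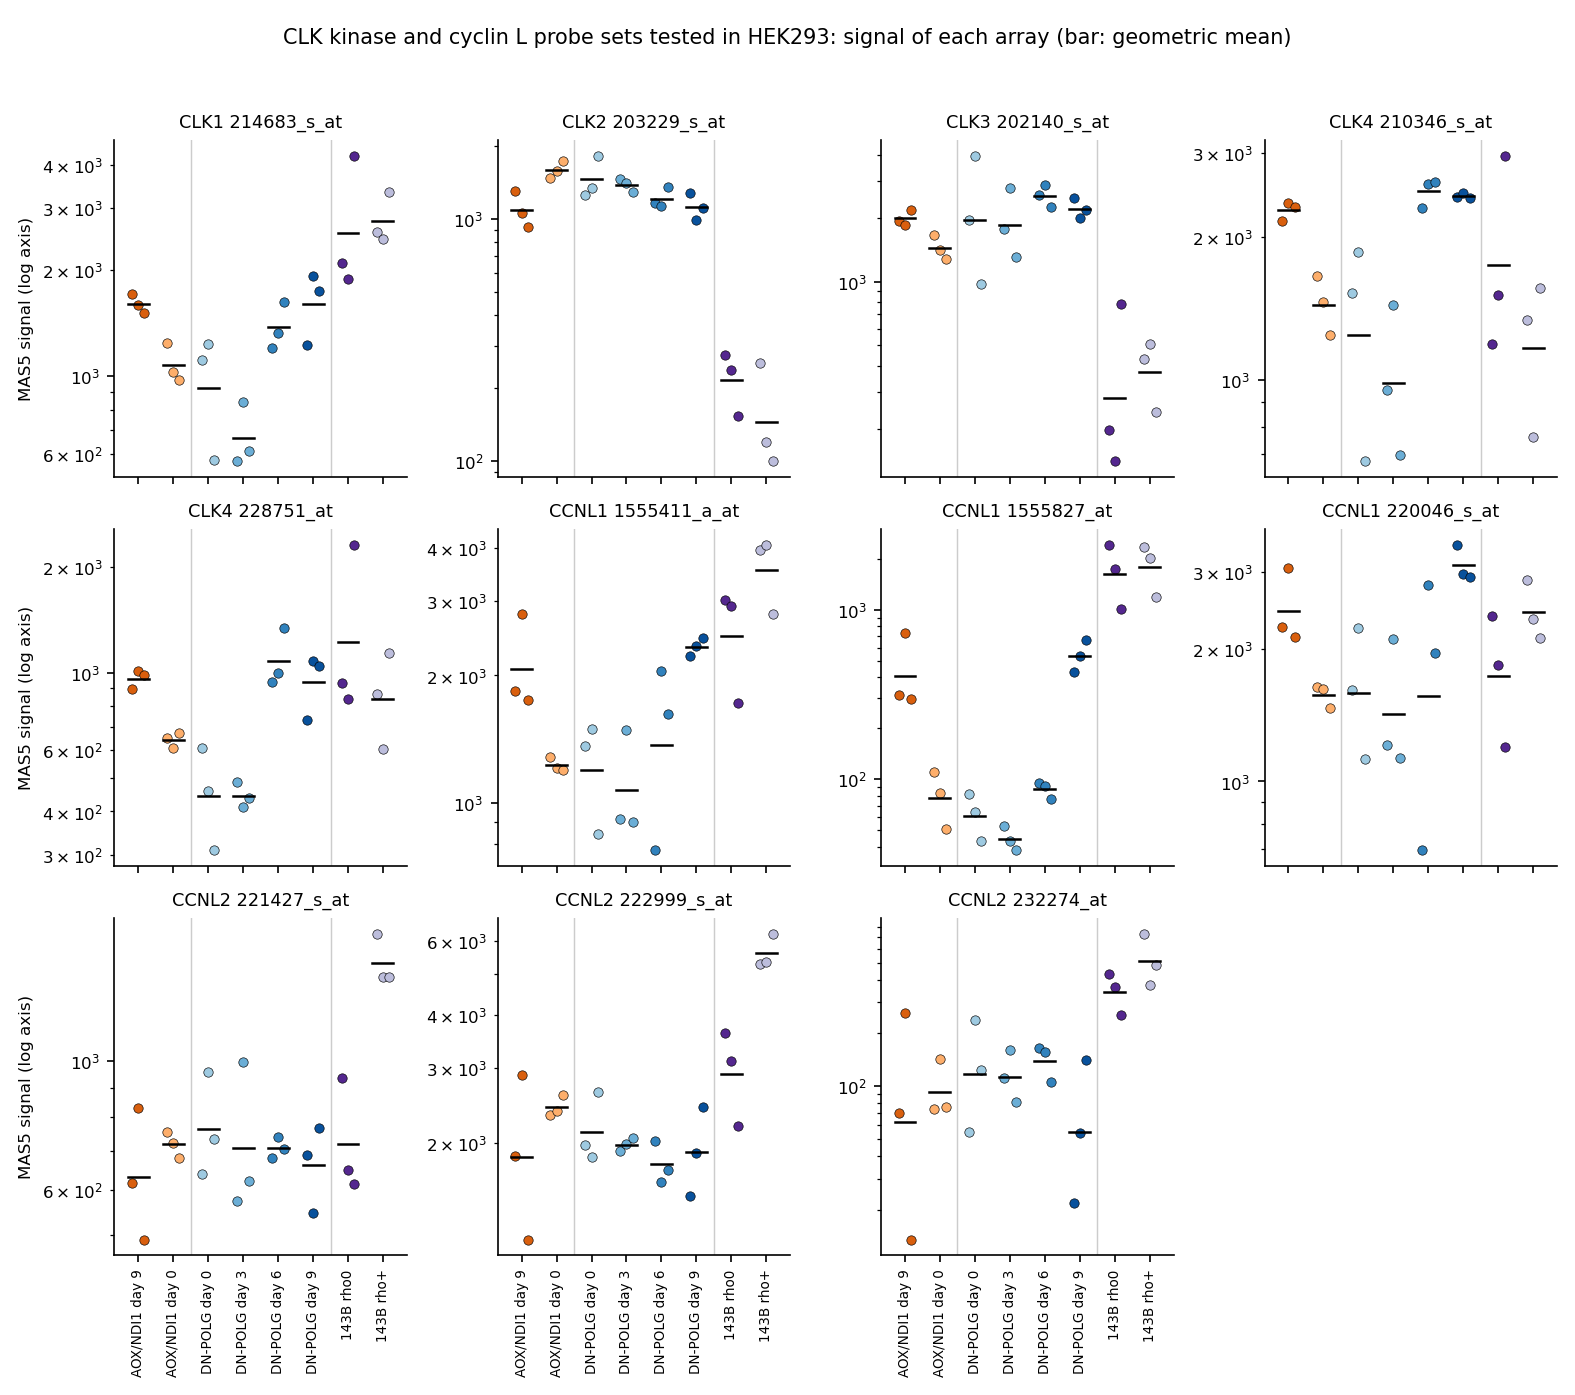
MAS5 signal (log axis) of the 11 CLK and cyclin L probe sets tested in HEK293 cells, with a point for each array, a bar for the geometric mean of 3 arrays, and the groups along the horizontal axis. CCNL1 1555827_at stands at 296 to 734 in the day 9 cultures of both models and at 43.2 to 111 in their day 0 cultures, a gap not seen for the other CCNL1 probe sets.

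Among SR proteins the calls went both ways, with 1 of 39 tested probe sets risen (2.56%, against 2.46% of all tested) and 5 fallen (12.8%, against 9.33%) in AOX/NDI1 cells. In DN-POLG cells 2 rose (5.13%, against 2.31%) and 3 fell (7.69%, against 6.07%). SRSF11, an SR-related speckle protein, had the largest rise in AOX/NDI1 cells. SRSF11 236948_x_at had 488, 958 and 401 in AOX/NDI1 day 9 cultures, against 53.7, 58.8 and 71.8 in AOX/NDI1 day 0 cultures. In DN-POLG the signals were 258, 636 and 954 at day 9, against 72.6, 88.6 and 36.7 at day 0. The lowest day 9 culture was well above the highest day 0 culture in each model, and the log2FC was 3.23 ± 0.51 (adjusted p = 0.000935) in AOX/NDI1 and 3.12 ± 0.51 (adjusted p = 0.00157) in DN-POLG cells, with 1 of 3 day 0 signals under the filter in each model. The brightest SRSF11 probe set, 200686_s_at, had 0.38 (adjusted p = 0.287) and 0.35 (adjusted p = 0.387), and 200685_at had -0.68 (adjusted p = 0.0897) and -0.55 (adjusted p = 0.214). SRSF5 210077_s_at had 261, 218 and 166 in AOX/NDI1 day 9 cultures, against 119, 174 and 128 at day 0 (0.61, adjusted p = 0.299). In DN-POLG cells it had 182, 322 and 271 at day 9, against 103, 52.2 and 143 at day 0. All 3 DN-POLG day 9 cultures lay above the day 0 cultures, 1 of which was under the filter (1.46 ± 0.36, adjusted p = 0.0178), while the AOX/NDI1 groups overlapped. The DN-POLG call was lost without day 0 replicate 2, day 9 replicate 2 or day 9 replicate 3 (highest adjusted p = 0.0793). The brightest SRSF5 probe set, 212266_s_at, had -0.995 (adjusted p = 0.0569) in AOX/NDI1 and -0.89 (adjusted p = 0.109) in DN-POLG cells.

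SRSF1, an SR protein that binds exonic enhancers, fell on 3 probe sets in AOX/NDI1 and on 2 of these in DN-POLG cells. SRSF1 229246_at had 23.6, 9.35 and 8.29 in AOX/NDI1 day 9 cultures, against 109, 160 and 152 in AOX/NDI1 day 0 cultures. DN-POLG cells had 5.64, 34.0 and 42.9 at day 9, against 253, 97.0 and 232 at day 0. All 6 day 9 signals of this probe set lay under the filter, so that it was at least 2.41-fold lower at day 9 in AOX/NDI1 (adjusted p = 0.00252) and at least 3.12-fold lower in DN-POLG cells (adjusted p = 0.00677). SRSF1 226419_s_at had 443, 820 and 491 in AOX/NDI1 day 9 cultures, against 1238, 1658 and 1137 at day 0 (-1.24 ± 0.35, adjusted p = 0.0312). The DN-POLG cultures had 688, 567 and 327 at day 9, against 1414, 1629 and 961 at day 0 (-1.37 ± 0.35, adjusted p = 0.0233). The groups did not overlap in either model. With 1 array left out, the AOX/NDI1 call of 226419_s_at held only without AOX/NDI1 day 9 replicate 2 or DN-POLG day 6 replicate 1 (highest adjusted p = 0.126), and its DN-POLG call was lost without day 0 replicate 1, day 0 replicate 2 or day 9 replicate 3 (highest adjusted p = 0.125). The third, 201741_x_at, fell in AOX/NDI1 cells to a mean of 77.7 ± 52.2 at day 9, against 231 ± 60.6 at day 0 (SD, n = 3 each; -1.73, adjusted p = 0.0246), with 2 of the 3 day 9 signals under the filter and the call lost without replicate 2 or 3 of either day (highest adjusted p = 0.109). The brightest SRSF1 probe set, 211784_s_at, had 16630, 19420 and 13130 in AOX/NDI1 day 9 cultures, against 12610, 15220 and 14750 at day 0 (0.19, adjusted p = 0.665). It had 13330, 17250 and 17140 in DN-POLG day 9 cultures, against 13530, 9491 and 20880 at day 0 (0.19, adjusted p = 0.741), so that its groups overlapped in both models.

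SRSF6 and SRSF3 also had falling probe sets. SRSF6 208804_s_at had 1327, 1725 and 1578 in AOX/NDI1 day 9 cultures, against 2497, 2538 and 2978 at day 0 (-0.80 ± 0.22, adjusted p = 0.0294). In DN-POLG the signals were 1809, 1833 and 1670 at day 9, against 3068, 3165 and 4599 at day 0 (-1.004 ± 0.22, adjusted p = 0.0106). Every day 9 culture was below every day 0 culture of both models, and the AOX/NDI1 call held only without AOX/NDI1 day 9 replicate 2 or DN-POLG day 6 replicate 1 (highest adjusted p = 0.128). The other SRSF6 probe set, 206108_s_at, had 0.08 (adjusted p = 0.92) in AOX/NDI1 and 0.38 (adjusted p = 0.624) in DN-POLG cells. SRSF3, the smallest SR protein, which limits its own level through an exon with a stop codon, was read low by 235324_at in AOX/NDI1 cells. SRSF3 235324_at had 108, 116 and 124 in AOX/NDI1 day 9 cultures, against 388, 310 and 481 at day 0 (-1.74 ± 0.44, adjusted p = 0.0159). In DN-POLG cells it had 231, 150 and 139 at day 9, against 280, 315 and 679 at day 0 (-1.21, adjusted p = 0.107). The cultures did not overlap in either model, and the AOX/NDI1 call was lost without day 0 replicate 1, day 9 replicate 1 or day 0 replicate 3 (highest adjusted p = 0.0787).

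The SR proteins not yet named had no called probe set, nor did the TRA2 genes, whose proteins bind exonic enhancers together with SR proteins. By the brightest probe set of each gene, log2FC was -0.84 (adjusted p = 0.0978) in AOX/NDI1 and -0.29 (adjusted p = 0.671) in DN-POLG cells for SRSF3 208672_s_at, 0.49 (adjusted p = 0.221) and 0.46 (adjusted p = 0.307) for SRSF4, and -0.11 (adjusted p = 0.852) and 0.29 (adjusted p = 0.625) for SRSF7. It was 0.11 (adjusted p = 0.849) and 0.41 (adjusted p = 0.465) for SRSF8, -0.15 (adjusted p = 0.885) and 0.33 (adjusted p = 0.779) for SRSF10, and -0.36 (adjusted p = 0.49) and 0.26 (adjusted p = 0.706) for SRSF12, in the same order of models. TRA2A 204658_at had -0.02 in both (adjusted p = 0.98 in AOX/NDI1 and 0.986 in DN-POLG cells). TRA2B 200893_at was at 14030, 13280 and 12990 in DN-POLG day 9 cultures, against 12450, 11930 and 15120 at day 0 (0.04, adjusted p = 0.936), and had -0.01 (adjusted p = 0.979) in AOX/NDI1 cells. The median log2FC of the SR family was -0.19 in AOX/NDI1 and 0.16 in DN-POLG cells.

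Among the HNRNP genes, 3 of 65 tested probe sets rose in AOX/NDI1 cells (4.62%, against 2.46% of all tested) and 4 fell (6.15%, against 9.33%). In DN-POLG cells 4 rose (6.15%, against 2.31%) and 0 fell (against 6.07%). HNRNPA1, known as a repressor of exons, was read by 222040_at at 1970, 4625 and 1670 in AOX/NDI1 day 9 cultures, against 448, 598 and 437 at day 0. DN-POLG cells had 2226, 2145 and 4041 at day 9, against 426, 674 and 683 at day 0. The cultures of the 2 days were far apart in both models (2.34 ± 0.36 with adjusted p = 0.000736 in AOX/NDI1, and 2.21 ± 0.36 with adjusted p = 0.0015 in DN-POLG cells). HNRNPM 1555843_at had 682, 1218 and 564 in AOX/NDI1 day 9 cultures, against 284, 271 and 189 at day 0 (1.67 ± 0.32, adjusted p = 0.00285). The DN-POLG cultures had 723, 802 and 1103 at day 9, against 187, 318 and 191 at day 0 (1.94 ± 0.32, adjusted p = 0.00146). These calls of HNRNPA1 and HNRNPM held without any 1 array.

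HNRNPD, also called AUF1, binds AU-rich elements and is known for its part in mRNA decay, and HNRNPDL is its close relative. HNRNPD 213359_at had 6491, 10270 and 3764 in AOX/NDI1 day 9 cultures, against 2047, 2448 and 1164 at day 0. In DN-POLG the signals were 3358, 5906 and 8784 at day 9, against 1859, 800.0 and 554 at day 0. All day 9 cultures were above all day 0 cultures of their model, and the log2FC was 1.81 ± 0.54 (adjusted p = 0.038) in AOX/NDI1 and 2.57 ± 0.54 (adjusted p = 0.00717) in DN-POLG cells. The AOX/NDI1 call was lost without any 1 AOX/NDI1 array other than day 9 replicate 3 (highest adjusted p = 0.171), and the DN-POLG call held without each array. HNRNPDL 212454_x_at had 7755, 12310 and 5367 in AOX/NDI1 day 9 cultures, against 5884, 7290 and 5419 at day 0 (0.38, adjusted p = 0.58). In DN-POLG cells it had 7042, 11470 and 11920 at day 9, against 4911, 1932 and 3487 at day 0 (1.62 ± 0.39, adjusted p = 0.0158). The AOX/NDI1 groups overlapped and the DN-POLG groups did not, and the DN-POLG call was lost without day 0 replicate 2, day 9 replicate 2 or day 9 replicate 3 (highest adjusted p = 0.0721). Of the 4 HNRNP probe sets that fell in AOX/NDI1 cells, the largest change was that of HNRNPA0 229083_at. It had 606, 687 and 469 in AOX/NDI1 day 9 cultures, against 1453, 1865 and 1663 at day 0 (-1.51 ± 0.26, adjusted p = 0.00159). DN-POLG cells had 752, 823 and 877 at day 9, against 1442, 936 and 2060 at day 0 (-0.79, adjusted p = 0.0784). The cultures did not overlap in either model.

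Of 90 tested probe sets of the RBM genes, the most numerous family, 5 rose (5.56%, against 2.46% of all tested) and 9 fell (10%, against 9.33%) in AOX/NDI1 cells. In DN-POLG cells 3 rose (3.33%, against 2.31%) and 6 fell (6.67%, against 6.07%), shares near those of all tested probe sets. RBM8A encodes Y14, a core protein of the exon junction complex that splicing leaves on mRNA. RBM8A 1554602_at had 585, 1693 and 589 in AOX/NDI1 day 9 cultures, against 208, 143 and 182 at day 0 (2.25 ± 0.46, adjusted p = 0.00464). The DN-POLG cultures had 983, 942 and 1638 at day 9, against 182, 302 and 124 at day 0 (2.60 ± 0.46, adjusted p = 0.00248). Both models had day 9 cultures clear of the day 0 cultures. RBM8A 213852_at moved the other way, with 1205, 1353 and 2138 in DN-POLG day 9 cultures, against 2747, 2438 and 2502 at day 0 (-0.76 ± 0.21, adjusted p = 0.0319), and with -0.33 (adjusted p = 0.332) in AOX/NDI1 cells. Its call was lost without replicate 1 of either day, day 9 replicate 2 or day 0 replicate 3 (highest adjusted p = 0.138).

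RBM26, a zinc-finger RNA-binding protein, had 1 probe set that rose and 1 that fell in each model. RBM26 229433_at had 2097, 1809 and 2503 in AOX/NDI1 day 9 cultures, against 983, 981 and 884 at day 0 (1.16 ± 0.25, adjusted p = 0.0073). In DN-POLG the signals were 1559, 2190 and 1905 at day 9, against 1191, 1011 and 595 at day 0 (1.06 ± 0.25, adjusted p = 0.0162). These day 9 cultures were all higher, and the DN-POLG call was lost without day 9 replicate 2, day 0 replicate 3 or day 9 replicate 3 (highest adjusted p = 0.0732). RBM26 226316_at had 768, 640 and 510 in AOX/NDI1 day 9 cultures, against 1961, 2355 and 1787 at day 0 (-1.68 ± 0.27, adjusted p = 0.000857). In DN-POLG cells it had 500, 647 and 459 at day 9, against 1676, 1100 and 1559 at day 0 (-1.43 ± 0.27, adjusted p = 0.00337). Here all day 9 cultures were lower, without overlap, on the same arrays. The antisense RNA RBM26-AS1 fell in AOX/NDI1 cells to 60.6 ± 11.9 at day 9, against 216 ± 43.1 at day 0 (SD, n = 3 each; -1.83, adjusted p = 0.0173), with 1 of 3 day 9 signals under the filter and the call lost without day 0 replicate 1, day 9 replicate 2 or day 0 replicate 3 (highest adjusted p = 0.0759).

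**Figure D2:**
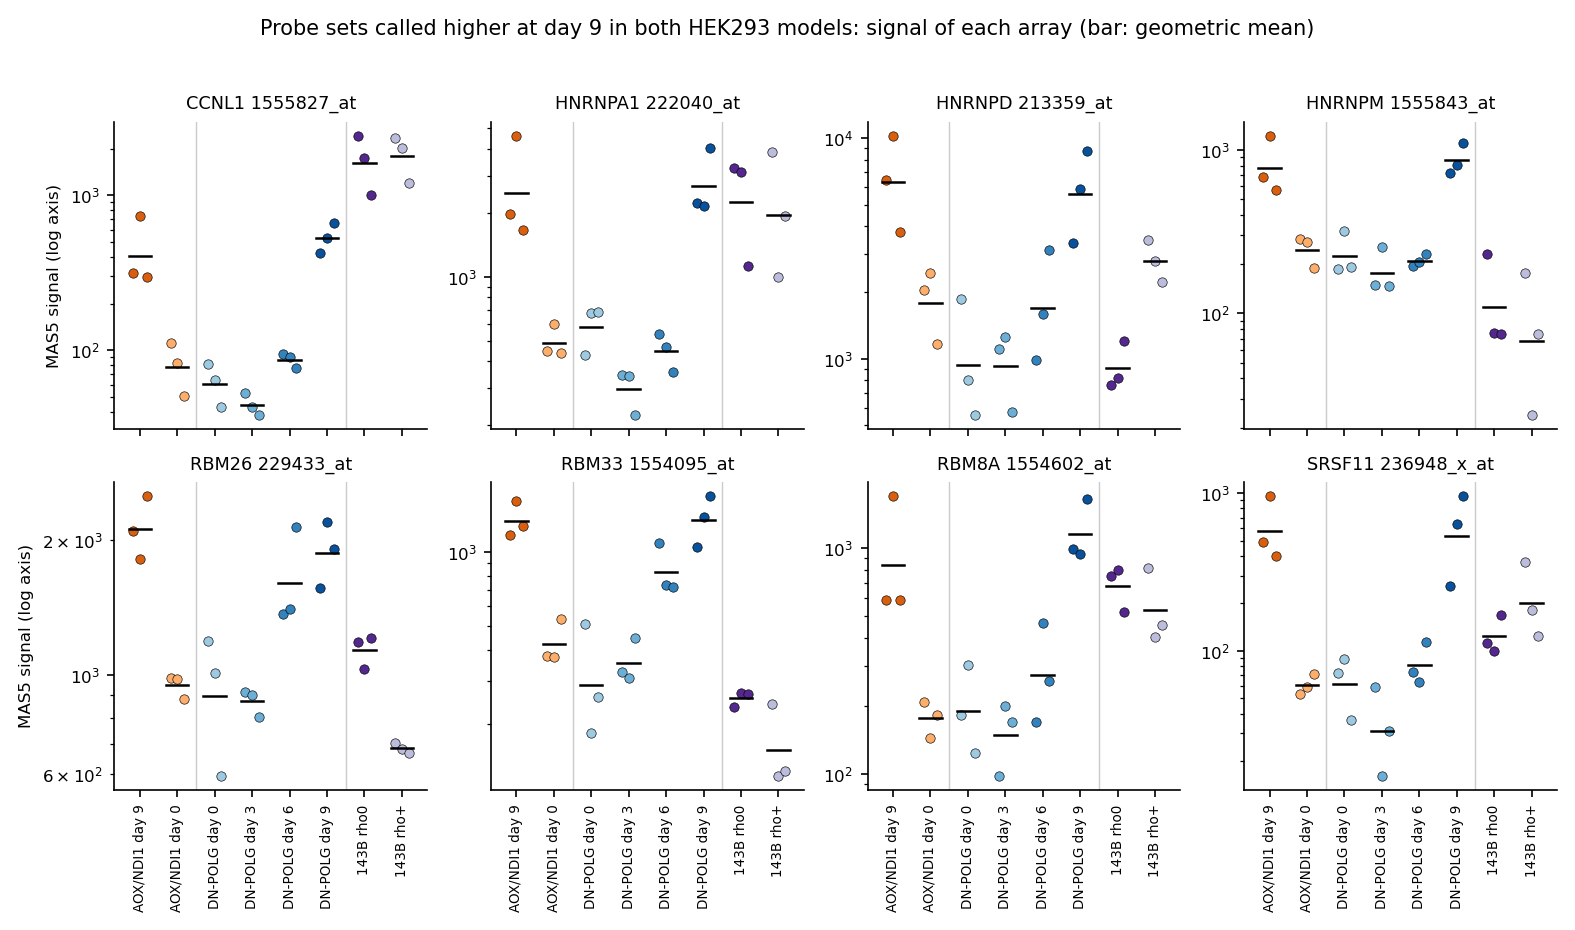
MAS5 signal (log axis) on each array of the 8 probe sets that rose in both HEK293 models, with the groups along the horizontal axis and a bar for the geometric mean of 3 arrays. In each panel all 3 day 9 cultures of a model lie above its 3 day 0 cultures, as for SRSF11 236948_x_at with 401 to 958 at day 9 and 53.7 to 71.8 at day 0 in AOX/NDI1 cells.

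RBM33 rose on 1554095_at, with 1173, 1607 and 1268 in AOX/NDI1 day 9 cultures, against 379, 375 and 532 at day 0 (1.66 ± 0.32, adjusted p = 0.00346). DN-POLG cells had 1048, 1387 and 1682 at day 9, against 508, 184 and 257 at day 0 (2.22 ± 0.32, adjusted p = 0.000681). The groups did not overlap and both calls held without each array. Another RBM33 probe set, 1554096_a_at, rose in AOX/NDI1 cells to 667 ± 67.5 at day 9, against 187 ± 35.1 at day 0 (SD, n = 3 each; 1.85, adjusted p = 0.0114, lost without AOX/NDI1 day 0 replicate 3 with adjusted p = 0.0555), and had 1.44 (adjusted p = 0.053) in DN-POLG cells. RBM12 212170_at had 450, 257 and 332 in AOX/NDI1 day 9 cultures, against 1227, 1633 and 1364 at day 0 (-2.05 ± 0.29, adjusted p = 0.000376). The DN-POLG cultures had 501, 462 and 320 at day 9, against 1393, 1020 and 1251 at day 0 (-1.53 ± 0.29, adjusted p = 0.0035). All day 9 cultures were below all day 0 cultures. The other RBM12 probe set, 212168_at, had -0.51 (adjusted p = 0.31) and -0.57 (adjusted p = 0.295). RBM12B, a relative of RBM12, was called in AOX/NDI1 cells on 238122_at, with 111, 169 and 89.6 at day 9, against 408, 543 and 585 at day 0 (-2.09 ± 0.44, adjusted p = 0.00525), and on 51228_at (-1.53, adjusted p = 0.0165). The 51228_at call was lost without day 9 replicate 1, day 0 replicate 2, day 0 replicate 3 or day 9 replicate 3 (highest adjusted p = 0.0723).

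RBM28, a nucleolar protein of ribosome assembly, fell on 231844_at by 0.83 on the log2 scale in AOX/NDI1 cells (352 ± 55.4 at day 9, against 620 ± 36.0 at day 0; adjusted p = 0.0377) and by 0.85 in DN-POLG cells (419 ± 142 at day 9, against 726 ± 114 at day 0; SD, n = 3 each; adjusted p = 0.0421). Its AOX/NDI1 call held only without AOX/NDI1 day 9 replicate 2 or DN-POLG day 6 replicate 1 (highest adjusted p = 0.145), and the DN-POLG call was lost without day 0 replicate 1, day 0 replicate 2 or day 9 replicate 2 (highest adjusted p = 0.198). The other RBM28 probe set, 218593_at, did not fall (0.04 in AOX/NDI1 and 0.35 in DN-POLG cells, neither called). RBM14, a paraspeckle protein and coactivator, was at 711, 799 and 821 in DN-POLG day 9 cultures, against 1290, 2169 and 1271 at day 0 on 204178_s_at. The groups did not overlap (-0.98 ± 0.27, adjusted p = 0.0316), and the call was lost without day 0 replicate 2 or any 1 of the day 9 arrays (highest adjusted p = 0.102). Among the risen probe sets the highest day 9 culture was AOX/NDI1 replicate 2 for 7 of 10 (70%, against 43.9% of all 570 risen probe sets) and DN-POLG replicate 3 for 8 of 11 (72.7%, against 54.4% of all 535). The part of these 2 cultures in the rises was not tested beyond the left-out arrays.

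**Figure D3:**
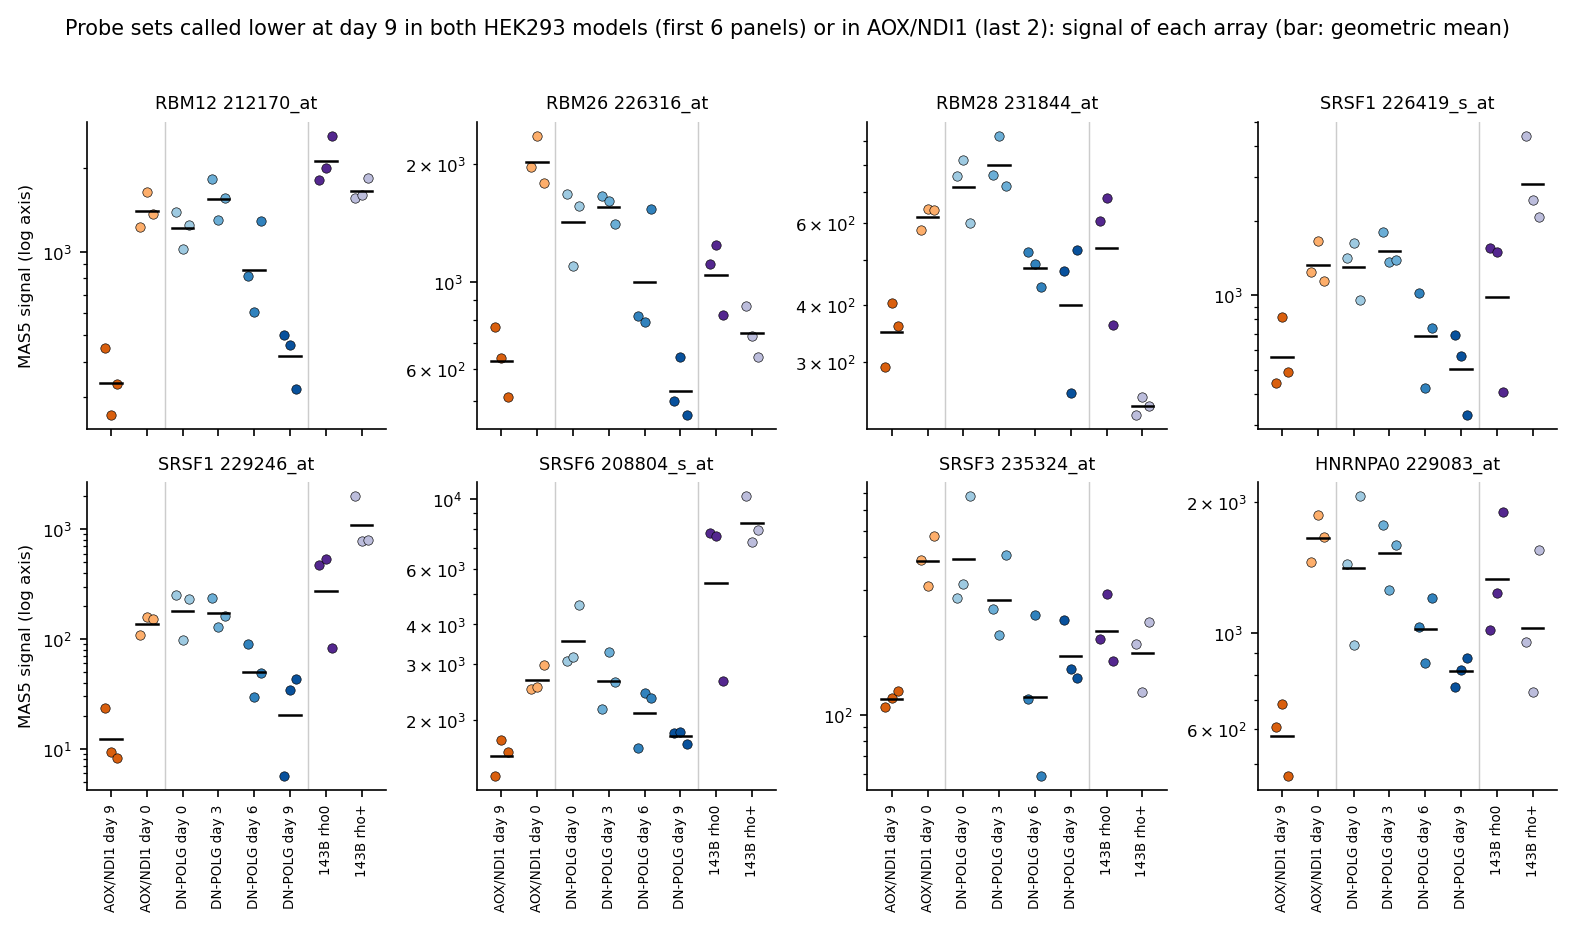
MAS5 signal (log axis) on each array of the 6 probe sets that fell in both HEK293 models and of SRSF3 235324_at and HNRNPA0 229083_at, which were called in AOX/NDI1 cells, with bars for geometric means of 3 arrays. RBM12 212170_at lies at 257 to 501 in the day 9 cultures of both models and at 1020 to 1633 in their day 0 cultures, and SRSF1 229246_at lies below 43 in all 6 day 9 cultures.

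The 2 HEK293 models were set side by side to ask whether AOX and NDI1 altered the response. In both models the same 8 probe sets rose (80.0% of those risen in AOX/NDI1 and 72.7% of those in DN-POLG cells), namely those of CCNL1, SRSF11, HNRNPA1, HNRNPD, HNRNPM, RBM8A 1554602_at, RBM26 229433_at and RBM33 1554095_at. The same 6 fell (33.3% and 66.7%), namely SRSF1 229246_at and 226419_s_at, SRSF6 208804_s_at, RBM12 212170_at, RBM26 226316_at and RBM28 231844_at. No probe set was called in opposite directions. The overlap of calls over all tested probe sets is not given, so these shares do not show whether such sharing is particular to splicing genes. The difference of the responses, AOX/NDI1 minus DN-POLG, was called by limma for 0 of the 213 probe sets (0.0% of all tested were called), with 4 at an unadjusted p below 0.05 (1.88%, against 3.39% of all tested) and values of -1.38 to 1.25. Over the 34 probe sets called in either model it was -1.24 to 1.12. Before doxycycline, AOX/NDI1 and DN-POLG cells differed for 0 of 213 probe sets with limma (0.00432% of all tested were called), with 8 at an unadjusted p below 0.05 (3.76%, against 4.86% of all tested) and 6 when arrays were weighted by their quality. For the weighted fit the share over all tested probe sets is not given, so its count is no result about the splicing genes.

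**Figure D4:**
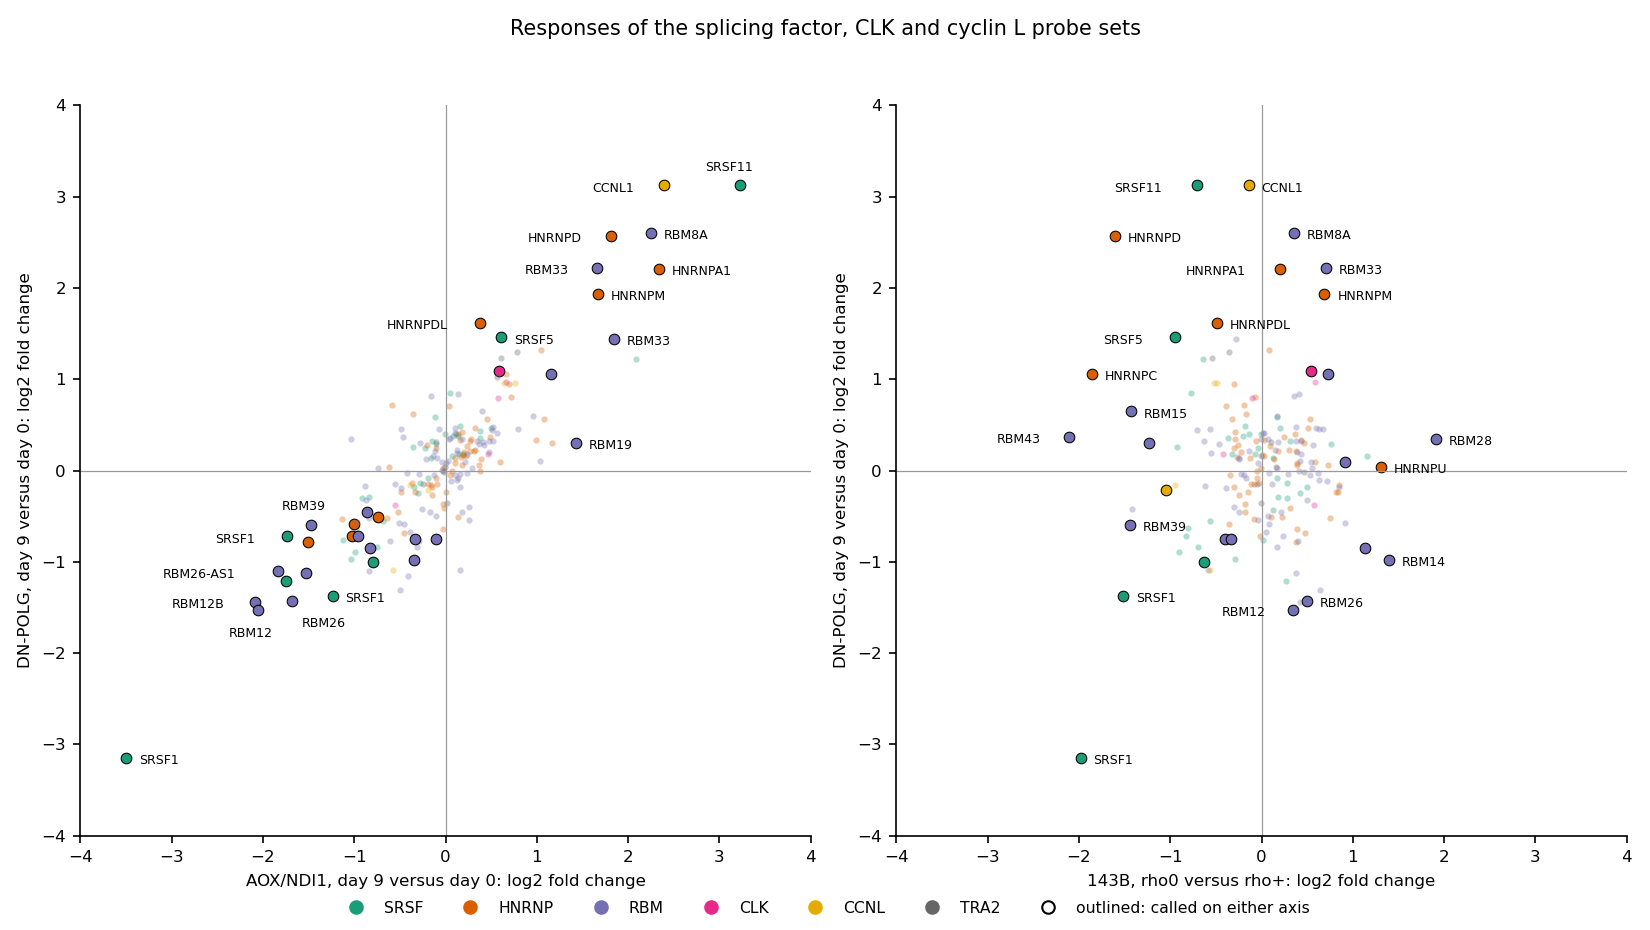
Log2 fold changes of the splicing probe sets, with DN-POLG cells at day 9 over day 0 on the vertical axis and, on the horizontal axis, AOX/NDI1 cells at day 9 over day 0 (left) or 143B rho0 over rho+ (right); colours are families and outlined points were called on either axis. SRSF11 lies near 3 on both axes on the left (3.23 and 3.12), whereas HNRNPD lies at 2.57 for DN-POLG and -1.61 for 143B on the right.

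In the DN-POLG time course most calls came at day 9. At day 3 no splicing probe set was called with limma (0.0% of all tested), with 4 at an unadjusted p below 0.05 (1.88%, against 2.72% of all tested) and 2 under array weights, for which no share over all tested probe sets is given. At day 6, 2 of 213 rose (0.324% of all tested rose) and 0 fell (1.05% of all tested fell), with 49 at an unadjusted p below 0.05 (23.0%, against 16.1% of all tested). The comparisons of day 6 and day 9 share the day 0 cultures. CLK4 228751_at had means of 459 ± 150 at day 0, 1094 ± 217 at day 6 and 952 ± 191 at day 9 (SD, n = 3 each), and 486, 412 and 438 in the 3 cultures of day 3. Its day 6 cultures, at 942, 998 and 1343, were all above day 0 (1.29 ± 0.24, adjusted p = 0.0213), a call lost without replicate 3 of day 0 or day 6 (highest adjusted p = 0.0727). RBM33 1554095_at had means of 316 ± 170 at day 0, 846 ± 206 at day 6 and 1372 ± 318 at day 9 (SD, n = 3 each). Its day 6 call (1.53 ± 0.32, adjusted p = 0.0355) was lost without day 6 replicate 1, day 0 replicate 3 or day 6 replicate 3 (highest adjusted p = 0.112), and neither day 6 call remained with the replicate number as a block (0 calls).

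The risen probe sets of day 9 differed in when they rose. CCNL1 1555827_at was at 81.9, 64.0 and 43.2 at day 0, 53.1, 43.0 and 38.0 at day 3, 94.7, 90.9 and 77.0 at day 6 and 427, 531 and 661 at day 9. HNRNPA1 222040_at was at 426, 674 and 683 at day 0, 345, 343 and 222 at day 3, 536, 470 and 357 at day 6 and 2226, 2145 and 4041 at day 9. Day 6 overlapped with or lay near day 0 in both, and day 9 was far above. A direct test of day 9 over day 6 called 4 splicing probe sets, all higher (0.32% of all tested were called): SRSF11 236948_x_at (2.73, adjusted p = 0.0314), CCNL1 1555827_at (2.61, adjusted p = 0.00892), HNRNPA1 222040_at (2.58, adjusted p = 0.00892) and HNRNPM 1555843_at (2.04, adjusted p = 0.0115). All 4 calls were lost without DN-POLG day 9 replicate 3, with adjusted p of 0.201, 0.0574, 0.0574 and 0.0887 in the same order. Over the 11 probe sets risen at day 9, log2FC against day 0 was -1.55 to 0.30 at day 3 and -0.38 to 1.53 at day 6. Over the 9 fallen it was -0.42 to 0.35 at day 3 and -1.82 to -0.41 at day 6, and SRSF1 229246_at, for example, had 89.4, 29.3 and 49.1 at day 6, 2 of them under the filter (-1.82, adjusted p = 0.178). The SR family as a whole had a median log2FC of -0.72 at day 6 with no probe set called, beside a median of -0.03 over all tested probe sets. Day 6 replicate 1, whose ACTB 3′ to 5′ ratio was 8.92, had the lowest of the 3 arrays, with an SR median of -0.94 against the day 0 mean, and the other two had -0.32 and -0.48. Without that array the SR median was -0.39, a value added after seeing the data.

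Since probe sets of one gene had different responses, each was tested against the mean of the other tested probe sets of its gene on the same array, a test open to 194 splicing probe sets. In AOX/NDI1 cells 32 of the 194 (16.5%) moved apart from their gene, 18 upwards and 14 downwards in 19 genes, against 7.45% of all 17215 such probe sets. In DN-POLG cells 33 (17.0%) did so, 16 upwards and 17 downwards in 17 genes, against 7.52% of all. Of these genes 15 were common to both models. Upward calls were shared for 13 probe sets (72.2% of those in AOX/NDI1 and 81.2% of those in DN-POLG cells) and downward calls for 10 (71.4% and 58.8%). The sharing over all such probe sets is not given, so it cannot be called particular to splicing genes. With 2 tested probe sets the values are mirror images, as for RBM12, RBM28 and SRSF6. In larger genes a strongly moving probe set also shifts the mean that the others are set against. The calls within a gene are therefore not independent.

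SRSF11 was spread by 3.91 log2 units between its lowest and highest probe set in AOX/NDI1 cells. Relative to the rest of the gene, 236948_x_at moved by 3.31 (adjusted p = 0.000608) in AOX/NDI1 and 2.91 (adjusted p = 0.00153) in DN-POLG cells, and 200685_at by -1.90 (adjusted p = 4.17e-05) and -1.99 (adjusted p = 2.95e-05). The mean that 200685_at is set against includes the risen 236948_x_at. Its values therefore partly mirror that rise, and its own level was not called in either model. RBM8A was spread by 3.69 in DN-POLG cells, with 1554602_at moving by 2.18 (adjusted p = 0.00408) in AOX/NDI1 and 3.12 (adjusted p = 0.000353) in DN-POLG cells. For CCNL1, 1555827_at moved up relative to the other 2 probe sets by 1.70 (adjusted p = 0.0234) and 2.16 (adjusted p = 0.00614). SRSF3 232392_at had 149, 237 and 115 in AOX/NDI1 day 9 cultures, against 39.1, 48.4 and 27.6 at day 0, a level change that did not pass (adjusted p = 0.0773), while 235324_at fell. Both moved apart from the rest of SRSF3 in AOX/NDI1 cells, 232392_at upwards (adjusted p = 0.00383) and 235324_at downwards (adjusted p = 0.0036). SRSF1 229246_at moved down (adjusted p = 0.0161 in AOX/NDI1 and 0.019 in DN-POLG cells) and the brightest SRSF1 probe set, 211784_s_at, moved up (adjusted p = 0.000373 and 0.0026) relative to their gene. No size is given for these 4 probe sets, since SRSF3 232392_at at day 0 and SRSF1 229246_at at day 9 lay under the filter on every array and enter all of these values.

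HNRNPD 213359_at stood alone among the probe sets of its gene, moving by 1.84 (adjusted p = 0.0433) in AOX/NDI1 and 2.56 (adjusted p = 0.00745) in DN-POLG cells. SRSF5 210077_s_at moved up by 2.32 (adjusted p = 0.000365) in DN-POLG cells, and at day 6 it was the one splicing probe set called (1.64, adjusted p = 0.0224, against 0.918% of all tested), a call lost without day 6 replicate 1, day 6 replicate 2 or day 0 replicate 3 (highest adjusted p = 0.063). RBM26 229433_at and 226316_at moved by 1.76 and -1.79 in AOX/NDI1 and by 1.48 and -1.62 in DN-POLG cells. Beside the 8 probe sets that rose in both models, the other 29 tested probe sets of their genes had medians of 0.11 in AOX/NDI1 and 0.13 in DN-POLG cells, with 27 of the 29 not called in each model. None moved apart at day 3 or between the models at day 0 with limma (0.0% of all tested in both). Some calls here rested on few arrays: in AOX/NDI1 cells the call of HNRNPD was lost without any 1 AOX/NDI1 array other than day 9 replicate 3 (highest adjusted p = 0.207), and that of CCNL1 without replicate 2 of either day or day 0 replicate 3 (highest adjusted p = 0.128). That of SRSF1 229246_at was lost without replicate 2 or 3 of either day in AOX/NDI1 (highest adjusted p = 0.0631) and without replicate 1 of day 0 or day 9 in DN-POLG cells (highest adjusted p = 0.0764). Probe sets whose names end in _s_at or _x_at can match several transcripts or related genes, and HNRNPA1 has many processed copies in the genome, so that which transcripts a probe set read was not tested.

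**Figure D5:**
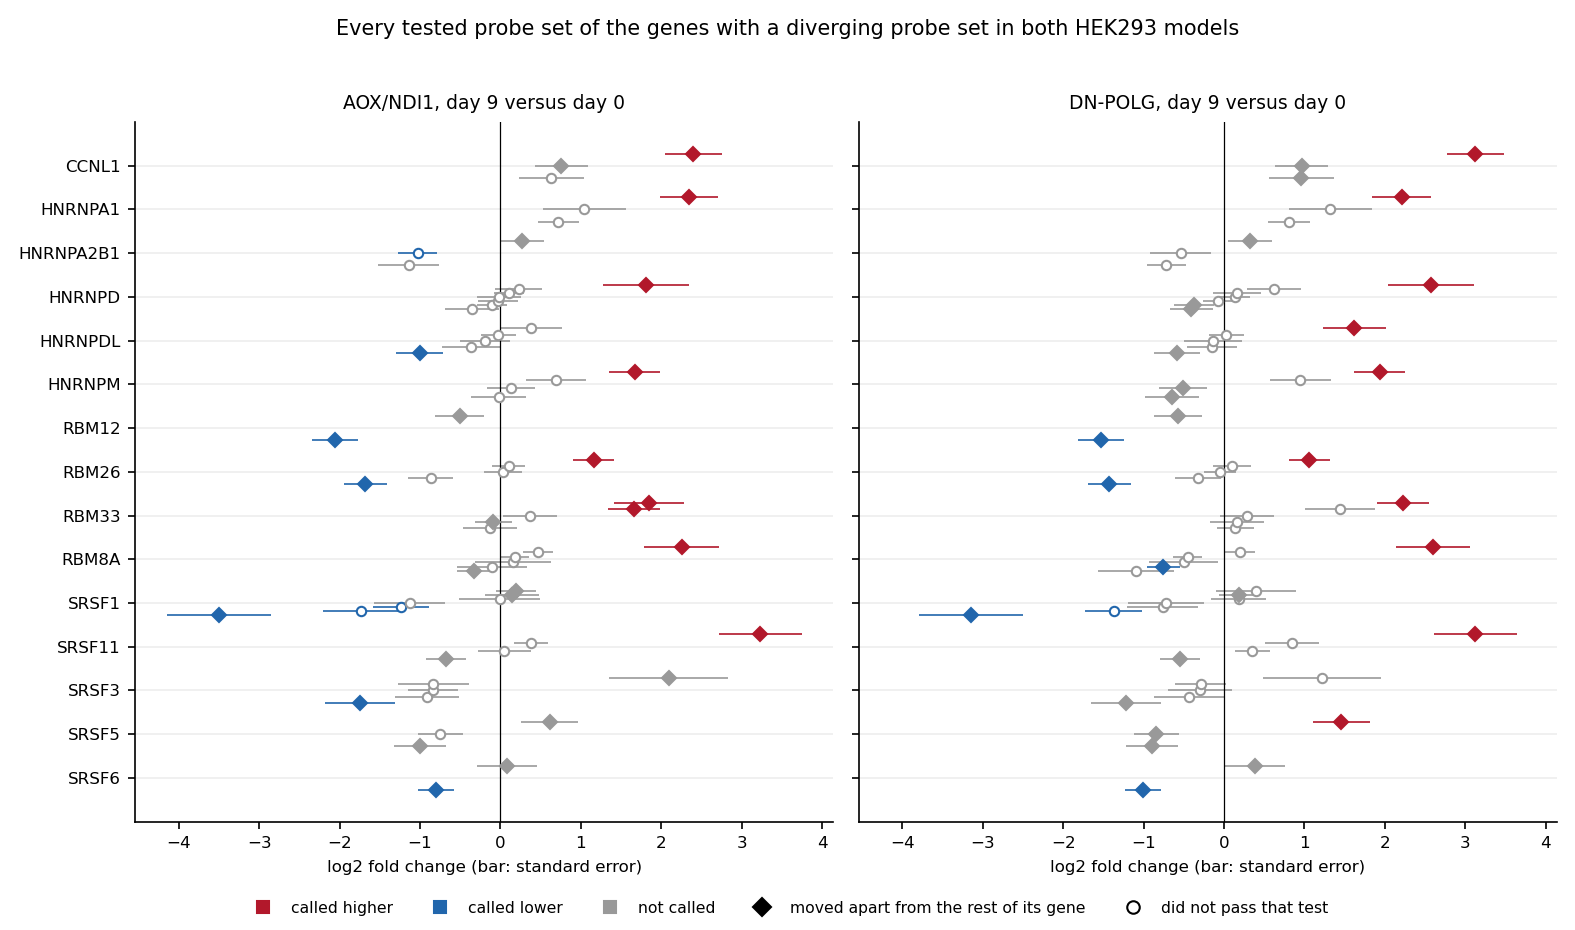
Log2 fold change at day 9 over day 0 (bars, standard errors) of every tested probe set of the 15 genes with a probe set that moved apart in both models, in AOX/NDI1 (left) and DN-POLG (right); diamonds moved apart from the rest of their gene, red and blue were called higher and lower, grey were not called. RBM26 has a red and a blue probe set in both panels, while the bars of SRSF1 229246_at and SRSF3 232392_at rest on signals under the filter and their lengths are not measured sizes. SRSF11 runs from -0.68 to 3.23 in AOX/NDI1 and from -0.55 to 3.12 in DN-POLG cells.

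In 143B cells the comparison of rho0 with rho+ cells asks the same question of chronic mtDNA loss in another line. Of 216 tested probe sets 4 rose (2.24% of all 22786 rose) and 7 fell (5.41% of all fell), in 10 genes. RBM28 218593_at had 3063, 2855 and 1673 in rho0 cultures, against 725, 661 and 570 in rho+ cultures. The groups were far apart (1.91 ± 0.30, adjusted p = 0.0121), and the call was lost without rho+ replicate 2 or 3 (highest adjusted p = 0.0637). RBM14 204178_s_at had 1991, 2230 and 1323 in rho0 cultures, against 916, 566 and 621 in rho+ cultures (1.40 ± 0.30, adjusted p = 0.033). HNRNPU 216855_s_at, of a scaffold protein of nuclear RNA and chromatin, had 808, 908 and 599 in rho0 cultures, against 363, 256 and 312 in rho+ cultures (1.31 ± 0.27, adjusted p = 0.0272). RBM17 224781_s_at, of a splicing factor with a U2AF homology motif, was at 6028 ± 404 in rho0 and 3210 ± 369 in rho+ cultures (SD, n = 3 each; 0.91, adjusted p = 0.0485). None of these overlapped between the lines. Each was the only call among the tested probe sets of its gene. Those were 5 for HNRNPU (log2FC 0.18 to 1.31), 3 for RBM17 (0.40 to 0.91), 3 for RBM14 (-0.03 to 1.40) and 2 for RBM28 (1.13 to 1.91).

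The falls in rho0 cells included a cyclin L and a U2AF-related factor. CCNL2 221427_s_at had 937, 649 and 613 in rho0 cultures, against 1663, 1400 and 1401 in rho+ cultures (-1.04 ± 0.26, adjusted p = 0.048), and its brightest probe set 222999_s_at had -0.94 (adjusted p = 0.0677). RBM39, which resembles U2AF, had 2718, 2602 and 1853 in rho0 cultures, against 7864, 6567 and 5116 in rho+ cultures on 226404_at (-1.44 ± 0.28, adjusted p = 0.0227), and its 227223_at also fell (-1.24, adjusted p = 0.0409). HNRNPD 213359_at had 757, 822 and 1205 in rho0 cultures, against 3462, 2772 and 2220 in rho+ cultures (-1.61 ± 0.29, adjusted p = 0.0186). In each of these the highest rho0 culture lay below the lowest rho+ culture. RBM15 228455_at, of an adaptor of the m6A methyltransferase, had 215, 179 and 311 in rho0 cultures, against 498, 656 and 714 in rho+ cultures (-1.43 ± 0.29, adjusted p = 0.0267). HNRNPC 235500_at had 80.0, 38.1 and 47.8 in rho0 cultures, against 302, 147 and 157 in rho+ cultures, and with all 3 rho0 signals under the filter it was at least 2.3-fold lower (adjusted p = 0.0278). RBM43 had 34.2, 39.3 and 150 in rho0 cultures, against 270, 248 and 244 in rho+ cultures (-2.11 ± 0.52, adjusted p = 0.0471), with 2 of the 3 rho0 signals under the filter. Only the named probe set was called among the 6 tested of RBM15 (-1.43 to 0.41), 7 of HNRNPC (up to 0.81) and 7 of HNRNPD (-1.61 to 0.31). Of the 11 calls none held without each array in turn. Those of RBM14, RBM15, RBM17, RBM43, HNRNPU, CCNL2 and RBM39 227223_at held only without rho0 replicate 3, with highest adjusted p of 0.111 to 0.173. HNRNPC lost its call without rho0 replicate 2 or any rho+ array (highest adjusted p = 0.0955), and HNRNPD and RBM39 226404_at without replicates 1 or 2 of either line (highest adjusted p = 0.0838 and 0.0975). The share of calls that were higher was 36.4% on the deposited scale, 50.0% after quantile normalization and 80.0% with arrays set to one median, and the part of the lower ACTB 3′ to 5′ ratios of the rho0 arrays was not tested.

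The responses of the 2 lines were then compared directly, HEK293 minus 143B, in a fit of all 24 arrays that was added after seeing the data. In AOX/NDI1 cells 9 of 198 probe sets were higher and 15 lower than in 143B (10.1% of all tested were called), and in DN-POLG cells 13 were higher and 10 lower (9.86%). Of the 8 probe sets that rose in both HEK293 models, 0 rose and 1, that of HNRNPD, fell in 143B with limma, over log2FC of -1.61 to 0.73. SRSF11 236948_x_at was at 113, 100 and 169 in rho0 cultures, against 366, 182 and 124 in rho+ cultures, and CCNL1 1555827_at at 2429, 1734 and 1010 in rho0 cultures, against 2343, 2026 and 1197 in rho+ cultures. Both overlapped between the 143B groups. The difference of responses was 3.93 (adjusted p = 0.00152) from AOX/NDI1 and 3.83 (adjusted p = 0.00206) from DN-POLG cells for SRSF11, 3.42 (adjusted p = 0.00323) and 4.18 (adjusted p = 0.000789) for HNRNPD, and 2.53 (adjusted p = 0.00452) and 3.26 (adjusted p = 0.000759) for CCNL1. Of the falling probe sets, RBM12 212170_at differed from 143B by -2.40 (adjusted p = 0.000547) in AOX/NDI1 and -1.88 (adjusted p = 0.0039) in DN-POLG cells. RBM26 226316_at differed by -2.17 (adjusted p = 0.000909) and -1.92 (adjusted p = 0.00254), and RBM28 231844_at by -1.96 (adjusted p = 0.00183) and -1.98 (adjusted p = 0.0018). The 8 risen and 6 fallen probe sets of both models were chosen for their HEK293 change, which enters the difference. The counts that passed are therefore no separate measure of a difference between the lines. Of the 8 probe sets risen in both models, the difference passed for 4 from AOX/NDI1 and 5 from DN-POLG cells, and of the 6 fallen for 3 from each. The fallen probe sets for which it did not pass were SRSF1 229246_at (adjusted p = 0.358 from AOX/NDI1 and 0.501 from DN-POLG cells), SRSF1 226419_s_at (0.28 with adjusted p = 0.828, and 0.14 with adjusted p = 0.915) and SRSF6 208804_s_at (-0.16 with adjusted p = 0.863, and -0.37 with adjusted p = 0.648). No splicing probe set moved apart from its gene in 143B with limma (0.293% of all 17412 were called), with 36 at an unadjusted p below 0.05 (18.4%, against 14.8% of all) and 1 after quantile normalization, for which no share over all is given.

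Other genes of splicing, from lists assembled by function, were read in the same fits. Of 77 probe sets of 44 core spliceosome genes, 3 rose (3.9%, against 2.46% of all tested) and 0 fell (against 9.33%) in AOX/NDI1 cells. In DN-POLG cells 3 rose (3.9%, against 2.31%) and 1 fell (1.3%, against 6.07%), and the medians were 0.26 in AOX/NDI1 and 0.05 in DN-POLG cells. SNRPA1 242146_at, of the U2 snRNP, rose in both, to 1008 ± 665 at day 9, against 301 ± 62.4 at day 0, in AOX/NDI1 cells (1.57, adjusted p = 0.0384) and to 1142 ± 402 at day 9, against 224 ± 101 at day 0, in DN-POLG cells (SD, n = 3 each; 2.39, adjusted p = 0.00463). U2AF1, which reads the 3′ splice site, rose on 2 probe sets in DN-POLG cells (1.13 and 1.33). Of 70 probe sets of 20 genes for speckle proteins and SR protein kinases, 1 rose and 6 fell in AOX/NDI1 cells (1.43% and 8.57%, against 2.46% and 9.33% of all tested) and 3 rose and 4 fell in DN-POLG cells (4.29% and 5.71%, against 2.31% and 6.07%). SRRM2, a scaffold of speckles, rose on 1554671_a_at by 2.08 (adjusted p = 0.00382) in AOX/NDI1 and 2.09 (adjusted p = 0.00494) in DN-POLG cells. LUC7L3, which associates with the U1 snRNP, fell on 3 probe sets in both models, led by 242389_at with 106 ± 41.6 at day 9, against 389 ± 35.5 at day 0, in AOX/NDI1 cells (-1.94, adjusted p = 0.000763) and 96.8 ± 25.9 at day 9, against 566 ± 78.7 at day 0, in DN-POLG cells (SD, n = 3 each; -2.57, adjusted p = 0.00017). These 3 LUC7L3 probe sets had also fallen at day 6. PNISR had a fallen probe set in both models and a risen one (226412_at, 0.82) in DN-POLG cells.

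The kinases CDK12 and CDK13, which act on RNA polymerase II, were in a list of cyclin L partners and related kinases, of which CDK12, CDK13 and CCNK were tested. CDK11 was not among those tested, so the list does not speak for the kinases that pair with cyclins L. In AOX/NDI1 cells 5 of 13 tested probe sets fell (38.5%, against 9.33% of all tested), and in DN-POLG cells 3 fell (23.1%, against 6.07%), with medians of -0.78 and -0.57. All fallen ones were of CDK12 (2 in AOX/NDI1 and 1 in DN-POLG cells) or CDK13 (3 and 2), so several probe sets of the same gene enter these shares. CDK13 207318_s_at fell to 206 ± 21.8 at day 9, against 629 ± 57.8 at day 0, in AOX/NDI1 cells (-1.61, adjusted p = 0.000134) and to 240.4 ± 30.0 at day 9, against 549 ± 20.04 at day 0, in DN-POLG cells (SD, n = 3 each; -1.20, adjusted p = 0.00129). Of 12 probe sets of nonsense-mediated decay and exon junction genes, that of MAGOHB, whose protein binds the RBM8A protein, fell in AOX/NDI1 (-1.51, adjusted p = 0.00433) and in DN-POLG cells (-1.03, adjusted p = 0.0482). In 143B cells the 4 lists held 1 call with limma, EFTUD2 (0.98, adjusted p = 0.04). Of the mesenchymal markers, VIM 1555938_x_at rose in both HEK293 models (2.67 in AOX/NDI1 and 3.02 in DN-POLG cells) as 1 of 17 probe sets of that list, and of 8 probe sets of HEK293 markers 2 fell in AOX/NDI1 (EYA1 and WT1) and 1 in DN-POLG cells (EYA1). In 143B rho0 cells 4 of 28 mesenchymal probe sets rose (LGALS1, S100A4, SPARC and CD44). The part of these marker changes in the splicing results was not tested, and fewer cells of a kind cannot be told apart from less RNA in each cell.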

How the data were processed

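RNA of 24 cultures was hybridised to Affymetrix HG-U133 Plus 2.0 arrays. The deposited values are MAS5 signals, linear intensity values that the authors made in Affymetrix Expression Console (version not given in the sources used here), with a trimmed mean of 499.9 on the lowest and on the highest array. Symbols came from the platform annotation. The log2 of each signal, with nothing added, was tested in limma 3.58.1 (R 4.3.3), with 18 HEK293 arrays in one model of 6 group means and 6 143B arrays in another. Differences between HEK293 and 143B responses were instead fitted on all 24 arrays in one model, over the 19451 probe sets that passed the filter in both lines. That fit pools the spread of the 2 lines, and no array was left out in turn for it. Probe sets with 1 symbol and a mean at or above the median of all (signal 57.2 in HEK293, 83.3 in 143B) were tested, with Benjamini-Hochberg adjustment over all of them. The deposited files give no probe-level data or read depth, so precision rests on 3 arrays per group. Scripts were tested on simulated data.

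Members, lists and tests were chosen with earlier results of these data known. Named were up to 8 largest rises and 8 largest falls per comparison without overlap of arrays, genes called in both directions, up to 6 largest differences within genes, and CLK, CCNL, TRA2 and SRSF genes by their brightest and any called probe set; HNRNPA0, RBM33 1554096_a_at at day 9 in DN-POLG cells and the day 6 to day 9 test were added after their values were seen. The labels do not say what a replicate number marks, while the study describes a biological replicate as a culture round followed from a single starter culture through all days. Deviations of same-numbered arrays correlated by 0.323 to 0.506 between days 3 and 0 and 0.165 to 0.205 between days 6 and 0. Between AOX/NDI1 and DN-POLG cells at day 0, replicate 3 also reached 0.33. These values alone do not settle whether the numbers pair the cultures. The main fit left them unpaired, and a block on the number was an alternative. Other alternatives were quantile normalization, arrays set to one median, other filters, log2(signal + 32), array weights (limma with statmod 1.5.0), an intensity trend, the arrays of a comparison alone, an ANOVA of the compared groups alone, and each array left out. The methods of the study name an ANOVA but not the arrays that entered it.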

Additional observations from a re-analysis of the deposited data

Results flagged for a closer look

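HNRNPD 213359_at stood out because it was called in opposite directions in the 2 cell lines and the difference of the responses passed its own test with limma. The tests of such differences were added after seeing the data and reuse the arrays of the calls. The DN-POLG response minus the 143B response was 4.18 log2 units (2.57 in DN-POLG cells and -1.61 in 143B cells, adjusted p = 0.000789), and the AOX/NDI1 response minus the 143B response was 3.42 (1.81 and -1.61, adjusted p = 0.00323).

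RBM14 204178_s_at went the other way: the DN-POLG response minus the 143B response was -2.37 log2 units (-0.98 in DN-POLG cells and 1.40 in 143B cells, adjusted p = 0.000854).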

How the results depend on the processing

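Without the filter on low signals the counts were 0 at day 6, 12 at day 9 in DN-POLG, 18 in AOX/NDI1 and 0 in 143B cells, and with array weights they were 2 at day 3, 9 at day 6, 56 at day 9 in DN-POLG, 89 in AOX/NDI1, 6 between the models at day 0 and 51 in 143B cells. With only the arrays of the groups compared they were 0 at day 6, 7 at day 9 in DN-POLG and 69 in AOX/NDI1 cells, and with an ANOVA of the compared groups alone 0, 0, 56 and, in 143B, 0. Adding 32 gave 4 at day 6. The replicate block gave 0 at day 6 and 3 in 143B cells and moved no other count by over 1.5 times; outside days 3 and 6 same-numbered deviations correlated by -0.32 to 0.33. In 143B cells one median gave 20, an intensity trend 18, and leaving out _s_at and _x_at probe sets 7. Shares over all tested probe sets are not given for these counts.

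Moving apart gave 0 at day 6, 16 in DN-POLG and 15 in AOX/NDI1 cells with a stricter filter, 0, 21 and 19 without _s_at and _x_at probe sets, and 1 in 143B cells with quantile normalization, the stricter filter or 32 added. With each array left out in turn, level calls numbered 0 to 0 at day 3, 0 to 13 at day 6, 14 to 32 at day 9 in DN-POLG, 13 to 37 in AOX/NDI1, 0 to 0 between models and for the difference of responses, 0 to 29 in 143B and 0 to 5 for day 9 over day 6. Moving apart calls numbered 0 to 0 at day 3, 0 to 3 at day 6, 21 to 37 in DN-POLG, 16 to 38 in AOX/NDI1, 0 to 0 between models at day 0 and 0 to 4 in 143B cells. Leaving out DN-POLG day 6 replicate 1, chosen after seeing the data, gave 16 higher and 16 lower in DN-POLG and 16 higher and 21 lower in AOX/NDI1 cells at day 9. Shares over all tested probe sets are not given for any of these counts, which show only how the calls depended on the fit. Of 860 alternative values of 51 called results, 648 kept the call, 212 lost it and 0 changed sign; the causes were not tested.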
